A study of Bos taurus with 24 samples.

Results

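The miR-182, miR-183 and miR-96 cluster was followed in the mammary gland (MG) of lactating dairy cows before and after a feed restriction. The members were the 3 mature miRNAs named exactly bta-miR-182, bta-miR-183 and bta-miR-96, out of 796 listed in each of the 2 deposited tables of counts. All 3 were present in every library and passed the filter on low counts in every comparison. The study measured small RNA in MG biopsies of Holstein (HOLS) and Montbéliarde (MONT) cows. Each cow gave a biopsy on day 0, before the restriction (CONT), and another on day 6, at its end (REST). During the 6 days the cows received, per the labels, 60% of their net energy of lactation, and the study's methods state a lower allowance. The libraries analysed were 5 HOLS CONT, 5 HOLS REST, 6 MONT CONT and 6 MONT REST, from 11 cows, and the 2 libraries of a sixth HOLS cow were not analysed here. No group of cows stayed unrestricted until day 6, so the restriction and the passage of time cannot be told apart. The biopsies of a cow came from alternating sides of the rear udder.

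MiRNAs are short RNAs that guide the silencing complex to messenger RNAs, mainly by pairing through the seed, their bases 2 to 8. MiR-182, miR-183 and miR-96 are processed from one transcribed unit that is conserved among vertebrates and is best known from sensory cells of the ear and the eye. They are also found in epithelia, the mammary epithelium among them. The seeds of miR-182 and miR-96 resemble each other, whereas that of miR-183 is different, and miR-96 shares its seed with miR-1271, a miRNA from another locus. In RefSeq's annotation of the bovine assembly ARS-UCD2.0, MIR182, MIR96 and MIR183 were direct neighbours in this order on chromosome 4, with NRF1 before MIR182. MIR1271 was annotated on chromosome 7 and overlapped ARL10. This assembly is not the one the authors used and served only for names and neighbours.

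Libraries summed to 7431936 to 16808976 miRNA counts in HOLS before and 11108829 to 18149037 after the restriction. For MONT the sums were 6087865 to 11395785 before and 7817027 to 18913916 after it. The 8 listed epithelial miRNAs, such as miR-141 and miR-200c, summed to between 12441 and 56973 CPM, that is, counts scaled to a common library total, over the libraries, and the 3 listed skeletal muscle miRNAs to between 37.1 and 187 CPM. The 6 listed smooth muscle and fibroblast miRNAs, miR-143 among them, summed to more, between 152879 and 456033 CPM. Sums of the other lists were 17237 to 41789 CPM (endothelium), 2257 to 8449 CPM (leukocytes) and 1124 to 5429 CPM (red blood cells). One animal stood apart. In MONT cow 9615 the deviations of the CONT and REST libraries from their group means correlated across miRNAs with r = -0.24, against 0.06 to 0.74 in the other 10 cows. Whether the period labels of its 2 libraries are right was not tested, and MONT values include both unless stated otherwise. The shares of all miRNAs past the threshold depended strongly on this cow and are given with and without it.

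The 3 members differed widely in level. Levels are given as CPM after TMM scaling, without division by length, since mature miRNAs are of nearly equal length. MiR-182 was at 2581 ± 330 CPM (SD, n = 22 libraries), miR-183 at 261 ± 77.3 CPM and miR-96 at 22.1 ± 5.78 CPM. This order, miR-182 above miR-183 above miR-96, held in each of the 22 libraries. Among the detected miRNAs ordered by mean level, miR-182 was number 36 of 754 in HOLS and 36 of 759 in MONT. Its neighbours in that order were miR-126-3p, an endothelial miRNA, and miR-125a in HOLS, and miR-200c, an epithelial miRNA, and let-7c in MONT. MiR-183 took place 82 in HOLS, between miR-93 and miR-30f, and place 92 in MONT, between miR-28 and miR-107. MiR-96 took place 167 in HOLS, between miR-193a-5p and miR-2285k, and place 172 in MONT, between miR-369-3p and miR-504.

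MiR-182 made up most of the reads of the cluster. Its share of the summed CPM of the members was 89.0 ± 3.18% in CONT and 87.7 ± 4.70% in REST for HOLS (SD, n = 5), and 90.9 ± 3.39% in CONT and 91.5 ± 1.68% in REST for MONT (n = 6). The share of miR-183 averaged 7.81% to 11.4% in the 4 groups, and that of miR-96 0.713% to 0.897%. Because ligation and amplification act unequally on different small RNAs, such shares describe the libraries and may differ from the shares in the cell. The deposited counts do not separate a lower number of cells of one type from less RNA per cell.

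In HOLS, the miR-182 level in CONT was 2910, 2259, 2329, 2522 and 2965 CPM in cows 1165, 8200, 9195, 1155 and 2182. In REST the same cows had 1839, 2031, 2235, 2341 and 3158 CPM. The ranges of the periods overlapped, with 4 of 5 cows lower in REST and cow 2182 highest in both periods. In MONT, the lowest, median and highest miR-182 levels were 2253, 2715 and 2955 CPM in CONT and 2535, 2734 and 2795 CPM in REST. The REST values lay within the range of CONT. With scaling by library size alone they did not, at 2172 to 3612 CPM in REST and 2366 to 3143 CPM in CONT.

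MiR-183 in HOLS CONT was at 282, 357, 359, 235 and 223 CPM in the same order of cows, and in HOLS REST at 372, 284, 345, 268 and 160 CPM. The periods overlapped, and cows 1165 and 1155 were higher in REST whereas the other 3 were lower. In MONT the lowest, median and highest values were 159, 219 and 457 CPM in CONT and 155, 233 and 284 CPM in REST. The value of 457 CPM belonged to cow 9615, and the other 5 MONT CONT libraries lay between 159 and 239 CPM.

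MiR-96, the scarcest member, rested on 115 to 407 counts per library. In HOLS CONT it was at 25.4, 30.3, 25.0, 18.5 and 19.0 CPM, and in HOLS REST at 33.7, 20.6, 24.3, 17.1 and 17.2 CPM. It was higher in REST in cow 1165 and lower in the other 4. In MONT the lowest, median and highest values were 14.3, 19.98 and 33.1 CPM in CONT and 14.8, 21.6 and 27.99 CPM in REST, and the periods overlapped. The counting error at 115 counts was 9.33%, well under the spread between cows.

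**Figure D1:**
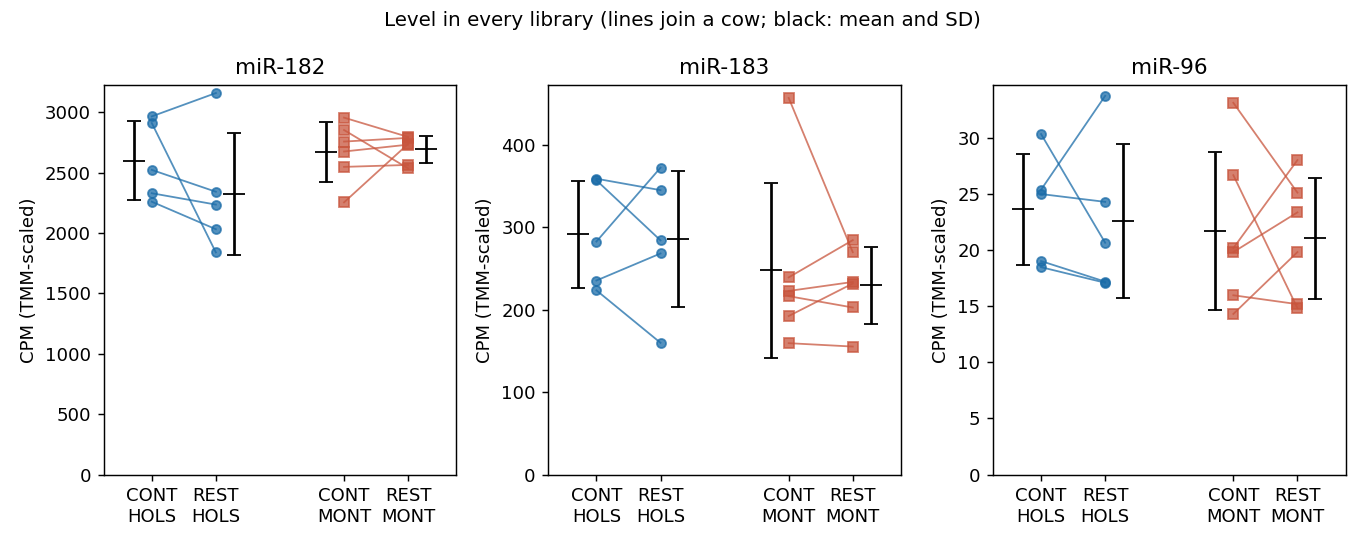
Levels of miR-182, miR-183 and miR-96 (CPM after TMM scaling) in the CONT and REST libraries of the 5 HOLS and 6 MONT cows, with a line for each cow and the mean and SD of each group. The groups overlap for each member, and cow 9615 is the high MONT CONT value of miR-183 at 457 CPM.

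The spread over the libraries differed between the members. The SD of log2(CPM + 1) over the 22 libraries was 0.19 for miR-182, 0.41 for miR-183 and 0.36 for miR-96, against a median of 0.39 over the 388 miRNAs tested. Only 17 of the 388 had a lower SD than miR-182, whereas 214 were below miR-183 and 150 below miR-96. Among the 28 miRNAs within 2-fold of the level of miR-182, 3 had a lower SD. With scaling by library size alone the SD was 0.30 for miR-182, 0.35 for miR-183 and 0.31 for miR-96, and 67, 136 and 93 of the 388 miRNAs had a lower one, so the low spread of miR-182 depended on the TMM factors. With them, the highest library was 1.72 times the lowest for miR-182, 2.94 times for miR-183 and 2.36 times for miR-96.

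The effect of feed restriction was tested within each breed on the counts with edgeR's quasi-likelihood test, with p-values adjusted over all miRNAs tested. In HOLS, 0 of the 3 members passed the threshold of 0.05 after adjustment, against 2.41% of the 374 miRNAs tested. With only 3 members, a count of 0 cannot be set apart from such a share, here or in the comparisons below. Those 2.41% were 9 miRNAs, and with a cow left out the number lay between 3 (without 1155 or 1165) and 14 (without 9195). The log2 fold change of REST over CONT was -0.10 for miR-182 (95% interval -0.44 to 0.25, edgeR adjusted p = 0.779), and -0.28 with scaling by library size alone. It was 0.03 for miR-183 (-0.43 to 0.48, edgeR adjusted p = 0.981) and -0.02 for miR-96 (-0.45 to 0.42, edgeR adjusted p = 0.988). Paired within cow by a replicate block, 16.3% of the tested miRNAs passed in HOLS and again 0 of the members. The blocked fold change on the log2 scale was -0.12 for miR-182 (-0.37 to 0.13), 0.0012 for miR-183 (-0.26 to 0.26) and -0.03 for miR-96 (-0.33 to 0.27). After adjustment, DESeq2 called 7.22% of the 374 miRNAs without the block and 18.4% with it. Without the block, limma-voom called 4.55%, and edgeR with library size only 5.35%. Each of these fits called 0 of the members. Also at an unadjusted p under 0.05, edgeR, DESeq2 and limma-voom without the block each called 0 of the members in HOLS. Of all 374 miRNAs tested, 87, 93 and 87 were under it.

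In MONT, edgeR called 0 of the members and 0% of the 349 miRNAs tested, and 47 of the 349 had an unadjusted p under 0.05, none of them a member. DESeq2 and limma-voom also called 0 after adjustment, with 53 and 43 miRNAs under 0.05 unadjusted. The log2 fold change was 0.01 for miR-182 (-0.22 to 0.25, edgeR adjusted p = 0.947), -0.08 for miR-183 (-0.56 to 0.39, edgeR adjusted p = 0.853) and -0.04 for miR-96 (-0.53 to 0.46, edgeR adjusted p = 0.937). With the replicate block edgeR again called 0%, and DESeq2 called 1 miRNA (0.287%), not a member. The edgeR shares rested on cow 9615. Without it edgeR called 12.8% of 358 miRNAs, and 39.1% with the block, and 0 of the members in either fit. Without this cow the log2 fold change was -0.0063 for miR-182, 0.10 for miR-183 and 0.045 for miR-96, and without cow 2614 it was 0.14 for miR-96.

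Over both breeds, 9.02% of the 388 miRNAs tested passed the threshold, and 14.4% with the block, and 0 of the members in either fit. The log2 fold change was -0.07 for miR-182 (-0.25 to 0.11), -0.07 for miR-183 (-0.42 to 0.27) and -0.06 for miR-96 (-0.39 to 0.28), with edgeR adjusted p of 0.628, 0.790 and 0.842. The interval of miR-182 was the narrowest of the 3. Without cow 9615, 31.2% passed, and 44.1% with the block, again 0 of the members, and the log2 fold change was 0.075 for miR-183 and 0.022 for miR-96. The number past the threshold was 35 with all cows and 11 to 31 when any other cow was left out. Without cow 1165 the value of miR-182 was 0.0074. With all cows, DESeq2 called 14.9% without the block and 28.4% with it, and limma-voom 9.28% without it, and 0 of the members.

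The change in each cow was also tested with an exact two-sided paired permutation test of log2(CPM + 1), 9 tests in all without adjustment. For miR-182 the mean change was -0.18 ± 0.29 in HOLS (SD, n = 5, exact p = 0.188) and 0.01 ± 0.15 in MONT (n = 6, exact p = 0.781). With 5 cows this test cannot go below 0.062, and with 6 not below 0.0312. For miR-183 the exact p was 0.812 in HOLS and 0.844 in MONT, and for miR-96 it was 0.562 and 0.906. Over the 11 cows it was 0.370 for miR-182, 0.631 for miR-183 and 0.691 for miR-96. The individual changes were wider than these means. MiR-182 ranged from -0.66 in cow 1165 to 0.28 in cow 1652, miR-183 from -0.76 in cow 9615 to 0.40 in cow 1165, and miR-96 from -0.81 in cow 2614 to 0.45 in cow 1613.

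**Figure D2:**
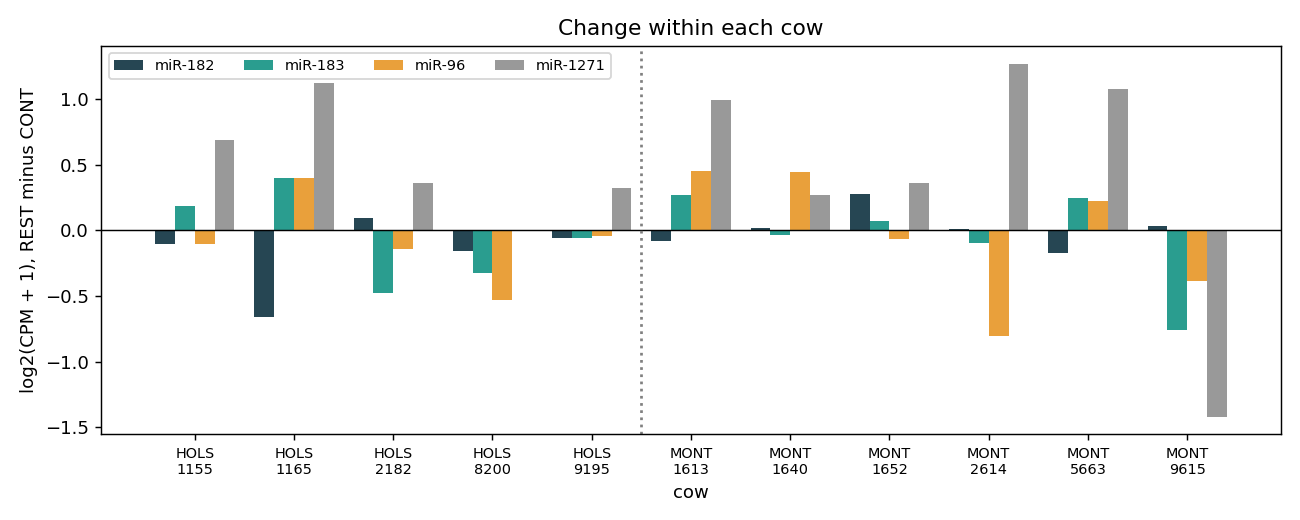
Change from CONT to REST in each of the 11 cows, as bars of the difference of log2(CPM + 1), for the 3 members and for miR-1271 (grey). Bars of each member lie on both sides of 0, from -0.81 for miR-96 in cow 2614 to 0.45 for miR-96 in cow 1613.

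A difference between the breeds in their response was examined with an interaction term in a model of the 22 libraries. For this term edgeR called 0 of the members and 0% of the 388 miRNAs, as did DESeq2 and limma-voom, with 3, 3 and 2 miRNAs under an unadjusted p of 0.05 and no member among them. The MONT change minus the HOLS change was 0.17 on the log2 scale for miR-182 (-0.19 to 0.53), -0.08 for miR-183 (-0.79 to 0.63) and 0.02 for miR-96 (-0.67 to 0.71), each with an edgeR adjusted p of 0.991. The fit with the replicate block again called 0%, but without cow 9615 it called 5.93%, again 0 of the members. Without the block, leaving out this cow gave 0 calls by edgeR and 33 miRNAs under 0.05 unadjusted.

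Breeds were then compared within each period, MONT against HOLS. The study describes its MONT libraries as of lower quality, with more short reads and adapters. Breed and library quality therefore cannot be told apart in these comparisons. In CONT, 7.47% of the miRNAs tested passed and 0 of the members. These were 29 miRNAs with all cows, 2 without cow 9615 (0.515%), 26 and 31 without cows 1613 and 2614, and 0 to 11 without any other cow. The fit used all 22 libraries and treated the 2 libraries of a cow as independent. With only the 11 CONT libraries 0.556% of 360 miRNAs passed, and with library size only 0.773% of 388. DESeq2 called 8.25% and limma-voom 3.87%, and 0 of the members passed in each of these fits. By edgeR over the 22 libraries, the log2 difference was 0.04 for miR-182 (-0.21 to 0.30, edgeR adjusted p = 0.880), -0.23 for miR-183 (-0.74 to 0.27, edgeR adjusted p = 0.616) and -0.13 for miR-96 (-0.61 to 0.36, edgeR adjusted p = 0.790). For miR-183 it was -0.48 without cow 9615, at an edgeR p of 0.0283 unadjusted and 0.211 adjusted.

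In REST, 13.7% passed and 0 of the members, and without cow 9615 the share was 26.0%. With other cows left out, 16 (without 1165 or 1652) to 58 miRNAs passed, against 53 with all cows. With only the 11 REST libraries 15.3% of 378 miRNAs passed. Over the 22 libraries, DESeq2 called 22.2% and limma-voom 17.5% of 388, and 0 of the members. MiR-182 was at 2691 ± 114 CPM in MONT and 2321 ± 506 CPM in HOLS (SD, n = 6 and 5), and 4 of the 5 HOLS libraries lay below all MONT libraries whereas cow 2182 lay above them. With scaling by library size alone these levels were 2739 ± 543 and 2211 ± 621 CPM, and cow 2182 lay within the MONT range, so the narrow MONT group depended on the TMM factors. The log2 difference was 0.21 (-0.04 to 0.47, edgeR adjusted p = 0.215). Without cow 2182 it was 0.32 (0.09 to 0.55), with an edgeR p of 0.0093 unadjusted and 0.0633 adjusted, the lowest adjusted p of a member under any alternative. MiR-183 differed by -0.32 (-0.82 to 0.19, edgeR adjusted p = 0.365) and miR-96 by -0.10 (-0.59 to 0.38, edgeR adjusted p = 0.785). Without cow 2182 the value for miR-183 was -0.49, at an edgeR p of 0.0496 unadjusted and 0.156 adjusted.

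**Figure D3:**
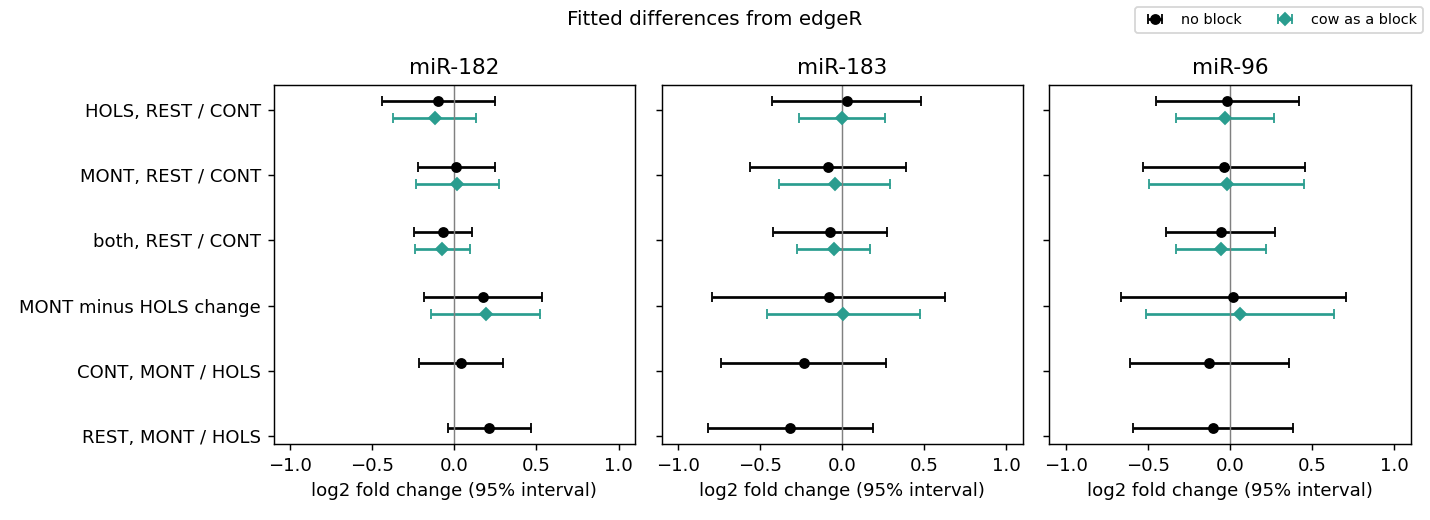
Fitted log2 fold changes of the 3 members with 95% intervals from edgeR, for feed restriction in each breed and in both, for the difference between the breeds' changes and for MONT against HOLS in each period, without and with the cow as a block. Each interval includes 0, and the intervals of miR-182 are narrower than those of miR-183 and miR-96.

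Ratios between the members were compared because they share a transcription unit. Over the 22 libraries, miR-182 was 10.9 ± 4.06 times miR-183 (SD), with a range from 4.94 in cow 1165 to 19.8 in cow 2182, both HOLS REST. MiR-183 was 11.9 ± 2.32 times miR-96, with a range from 7.84 to 15.7. The change of the log2 ratio with restriction was tested for 3 pairs in 2 breeds. In these 6 exact paired permutation tests p lay between 0.688 and 1, and the adjusted p was 1 in each. For miR-182 to miR-183 the mean change of the log2 ratio was -0.12 ± 0.61 in HOLS and 0.06 ± 0.44 in MONT (SD, n = 5 and 6 cows).

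The members did not vary together as one group over the libraries. MiR-183 and miR-96 correlated with Pearson r = 0.72 and Spearman rho = 0.66 over the 22 libraries, which come from 11 cows and share their scaling. Of 387 other tested miRNAs, miR-183 was the one most like miR-96, and miR-96 was number 8 for miR-183. In contrast, miR-182 and miR-183 had r = -0.58 and rho = -0.58, which placed miR-183 at number 376 of 387 for miR-182. MiR-182 and miR-96 had r = -0.31. As deviations from the 4 group means these 3 values were 0.72, -0.56 and -0.32, and with scaling by library size alone 0.62, -0.44 and -0.14.

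**Figure D4:**
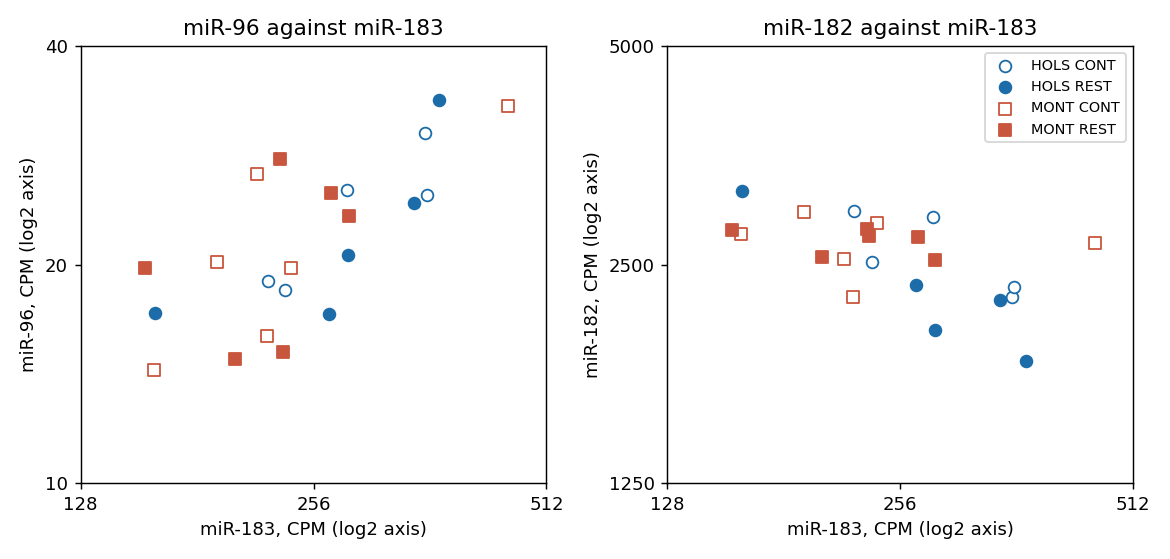
Level of miR-96 (left) and of miR-182 (right) against that of miR-183, in CPM on log2 axes, with a point for each of the 22 libraries, circles for HOLS, squares for MONT, open for CONT and filled for REST. Levels of miR-96 were higher where miR-183 was higher (r = 0.72), and those of miR-182 were lower (r = -0.58).

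By the same correlation, the miRNAs most like miR-182 were miR-128 (r = 0.65), miR-378b (0.58), let-7f (0.57), miR-6529b (0.56) and miR-6529a (0.56). The last 2 had nearly the same counts, and miR-378b averaged 0.688 CPM. Those most like miR-183 were miR-191 (r = 0.86), miR-374a (0.84), miR-2285k (0.76), miR-10b (0.74) and miR-10a (0.74). After miR-183, miR-96 was most like miR-374a (r = 0.65), miR-10b (0.64), miR-148c (0.64) and miR-152 (0.64), the last 2 again with nearly the same counts. MiR-374a and miR-10b stood in the list of both miR-183 and miR-96, and no miRNA of the list of miR-182 stood in another.

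Whether a cow's level in CONT was related to its level in REST was examined after the values had been seen, in 6 relations. Over the 11 cows miR-183 had Pearson r = 0.66 (permutation p = 0.0269, 0.161 after adjustment over the 6) and Spearman rho = 0.80 (permutation p = 0.00484, unadjusted). Without the 2 cows farthest from the median r was 0.71. Within the 6 MONT cows r was 0.69 (exact permutation p = 0.149) and rho 0.89 (exact permutation p = 0.0333, unadjusted). Without the 2 MONT cows farthest from the median r was 0.54. The 5 HOLS cows were not tested alone. The 11 cows pool 2 breeds, whose mean miR-183 levels were 289 CPM in HOLS and 239 CPM in MONT. The permutations over the 11 cows did not keep cows within their breed. Over the 11 cows r was 0.30 for miR-182 and 0.35 for miR-96 (permutation p = 0.363 and 0.285).

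The miRNAs of cell types in the biopsies were compared with the members. In HOLS with the cow as a block, 61 of the 374 miRNAs tested passed (16.3%), 30 of them upward. Of 8 tested epithelial miRNAs 3 fell, namely miR-200b, miR-200c and miR-429, and miR-31 rose. The list's median log2 change was -0.16 beside 0.01 for all miRNAs tested. For miR-200b the change was -0.55 (edgeR adjusted p = 0.00119). Of 6 smooth muscle and fibroblast miRNAs, 2 rose (miR-143 and miR-145, median 0.30), of 2 endothelial 1 (miR-126-3p, median 0.31), of 7 leukocyte 4 (miR-142-5p, miR-146a, miR-146b and miR-155, median 0.33) and of 3 of red blood cells 1 (miR-486, median -0.13). Neither of the 2 tested skeletal muscle miRNAs passed (median -0.0064). Without the block, 0 of these lists' miRNAs passed in HOLS or, with or without it, in MONT with cow 9615 included, by edgeR. Of all miRNAs tested, 2.41% passed in that HOLS fit and 0% in the MONT fits. Lists of 2 or 3 miRNAs are too small to be set against such shares, as are the 3 members. The summed level of the epithelial list ranged from 39298 to 50378 CPM in HOLS CONT and from 27196 to 56973 CPM in HOLS REST. In MONT it ranged from 18611 to 50394 CPM in CONT and from 12441 to 34846 CPM in REST. For MONT against HOLS in REST, 13.7% of all miRNAs tested passed. Of 8 epithelial miRNAs 1 was lower (miR-141) and 2 were higher. Of 6 smooth muscle and fibroblast miRNAs 3 were higher, and of 2 endothelial 1 was lower (miR-126-3p). In CONT, where 7.47% passed, 1 of 7 leukocyte miRNAs was higher (miR-146b). Each list was also scored as the mean log2(CPM + 1) of its miRNAs, which weights them equally. Over the 22 libraries the correlations of the members with these 6 scores lay between -0.37 and 0.45. Against the epithelial score they were 0.02 for miR-182, -0.12 for miR-183 and 0.19 for miR-96. With library size scaling these values were 0.29, -0.27 and 0.13. The part of cell type makeup in the levels of the members was not tested.

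MiR-1271, which shares the seed of miR-96, was lower than miR-96 in all 10 HOLS libraries and higher in 4 of the 12 MONT libraries. In HOLS it was at 7.60 ± 2.57 CPM in CONT and 11.04 ± 3.08 CPM in REST, and in MONT at 16.2 ± 8.58 CPM and 21.1 ± 6.49 CPM (SD, n = 5 and 6). Its CONT values overlapped its REST values in both breeds. The log2 fold change of REST over CONT in HOLS was 0.58 (edgeR adjusted p = 0.187), and with the replicate block it rose by 0.61 (edgeR adjusted p = 0.0384), higher in REST in 4 of 5 cows. In MONT it was 0.41 (edgeR adjusted p = 0.480), and without cow 9615, the one cow of 6 that was lower in REST, it was 0.83 (edgeR adjusted p = 0.0448), and 0.83 with the block (edgeR adjusted p = 0.0065). Of all miRNAs tested, 16.3% passed in the blocked HOLS fit. In the MONT fits without cow 9615, 12.8% passed, and 39.1% with the block. For miR-1271, MONT exceeded HOLS by 1.09 in CONT and by 0.94 in REST on the log2 scale (edgeR adjusted p = 0.0412 and 0.0476). In these fits 7.47% and 13.7% of all miRNAs tested passed. Over the alternatives the adjusted p of these breed differences spanned 0.0105 to 0.135 (CONT) and 0.00343 to 0.129 (REST), and without cow 9615 the CONT difference was 0.80 (edgeR adjusted p = 0.113). Its correlation over the 22 libraries was r = 0.11 with miR-96, 0.18 with miR-183 and -0.11 with miR-182. As deviations from the 4 group means these values were 0.38, 0.70 and -0.50.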

How the data were processed

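Small RNA libraries of MG biopsies had been sequenced by the authors, who trimmed adapters, selected reads on size, ran the ncPRO-seq pipeline for quantification and annotation, and used miRDeep2 against the bovine genome and miRBase. The submitters' processing notes name bcl2fastq 2.17.1.14 and DESeq2 1.18.1. The deposited counts are whole numbers of reads per mature miRNA, not normalized, in a table for each breed, and how reads that fit several near-identical miRNAs were counted is not given in the sources used here. The tables also hold 22 columns of normalized counts, means and the authors' fold changes and p-values, none of which were used.

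Counts were tested with edgeR 4.0.16 in R 4.3.3 (TMM, filterByExpr with a minimum count of 10, quasi-likelihood F test, Benjamini-Hochberg over all miRNAs tested, threshold 0.05). Breeds were compared over all 22 libraries, with only the 11 libraries of a period as an alternative. Depth lay between 6087865 and 18913916 counts, and intervals of counting cover counting error only. Levels were CPM with TMM factors over the 22 libraries, with a pseudocount of 1 on the log2 scale. The edgeR fits were tried on simulated counts without differences between cows and with changes larger than those of the members. The power to find small changes was therefore not tested.

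Libraries of one number come from the same cow per the labels, so the numbers pair the libraries. The deviations of a cow's CONT and REST libraries correlated with r from 0.29 to 0.54 in HOLS and from -0.24 to 0.74 in MONT. The study names no block, so the cow as a block was an alternative.

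Beside the members, the text names the 5 miRNAs most correlated with each, those next to each in level, miR-1271 for its seed, and from each list of cell type miRNAs the most abundant one or those past the threshold. The alternatives were the replicate block, DESeq2 1.42.0, limma-voom (limma 3.58.1), other scalings and filters, library totals computed without miR-143, and fits that left out each cow. The block without cow 9615 and the exact test, levels and spread with library size scaling were chosen after seeing the data. The members and lists were chosen with earlier results of these data known.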

Additional observations from a re-analysis of the deposited data

Results flagged for a closer look

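MiR-183 in the MONT CONT library of cow 9615 was at 457 CPM, far above the other 5 libraries of its group, which lay between 159 and 239 CPM. The same cow was at 270 CPM in REST, within the range of the other MONT REST libraries. Of 16 sets of values checked for such a value, each of 1 miRNA in 1 group, 1 held one, and chance gives about 0.8. The sets of different miRNAs came from the same libraries and were not independent. The same library had the highest MONT CONT levels of miR-96 and miR-1271, at 33.1 and 32.2 CPM.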

How the results depend on the processing

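No alternative, cow 9615 left out included, brought a member past the threshold, in 330 alternative values of 18 member differences, and the lowest adjusted p was 0.0633 by edgeR. The sign of 14 of the 18 turned in at least 1 alternative, all of them differences whose intervals include 0. For miR-183 in HOLS the log2 value turned to -0.0049 with DESeq2 and the block, -0.0061 with limma-voom and -0.14 with library size only. For miR-182 in MONT it turned to -0.0091 with library size only (-0.023 in the exact test) and -0.027 with a mean count of at least 10. With the replicate block and cow 9615 left out, miR-183 and miR-96 came to 0.081 and 0.036 in MONT and to 0.046 and 0.0068 over both breeds. The interaction of miR-183 turned to 0.0075 with the replicate block, 0.011 with limma-voom, 0.026 with library size only and 0.15 with the block and without cow 9615. That of miR-96 turned to -0.036 with DESeq2 and with its size factors and to -0.013 without a filter, and that of miR-1271 to 0.28 with the block and without cow 9615. MONT against HOLS in CONT turned to -0.0014 for miR-182 without a filter. With library size only, miR-182 came to -0.28 and miR-96 to -0.18 in HOLS, all 3 members to -0.13 over both breeds, the interaction of miR-182 to 0.27 and MONT against HOLS in REST to 0.31 for miR-182 and -0.011 for miR-96, and the SD of the log2 level of miR-182 to 0.30 from 0.19. Without cow 9615 the share of all miRNAs past the threshold in MONT went from 0% to 12.8%, or 39.1% with the block. The replicate block changed no call of a member. The causes were not tested.

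Leaving out each cow in turn gave log2 ranges, for miR-182, miR-183 and miR-96 in turn, of -0.19 to -0.016, -0.11 to 0.11 and -0.19 to 0.11 in HOLS, -0.088 to 0.066, -0.19 to 0.10 and -0.13 to 0.14 in MONT, -0.084 to 0.0074, -0.11 to 0.075 and -0.10 to 0.055 over both breeds and -0.030 to 0.21, -0.30 to 0.13 and -0.26 to 0.15 for the interaction. MONT against HOLS for miR-96 spanned -0.26 to 0.029 (CONT) and -0.26 to 0.021 (REST), and the interaction of miR-1271 from -0.42 to 0.29. The mean change of the log2 ratios ran from -0.30 to 0.11 in HOLS and -0.080 to 0.16 in MONT for miR-182 to miR-183, from -0.15 to 0.21 and -0.15 to 0.12 for miR-96 to miR-182, and from -0.12 to 0.039 and -0.063 to 0.18 for miR-96 to miR-183. Of the 5 miRNAs most like miR-182, 2 remained by Spearman correlation, 3 as deviations from group means and 2 with library size scaling. For miR-183, 3 of 5 remained as deviations and 3 with library size, and for miR-96, 3 as deviations. At 115 to 407 counts, miR-96 is the member whose precision the depth limits most.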
